A study of Mus musculus with 2 samples.

Results

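The growth plate loop that couples Indian hedgehog to parathyroid hormone-related protein (PTHrP) was examined through 9 mouse genes: Ihh, Pthlh, Ptch1, Pth1r, Smo, Sufu, Gli1, Gli2 and Gli3. A listed region of methylated DNA was assigned to a gene when it overlapped the annotated gene span widened by 20 kb on either side, called the window below. Of 35861 listed regions, 18 met this rule, and they fell to 6 of the 9 genes. No region was listed in the windows of Ihh, Pthlh and Gli3.

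The list compared 2 libraries of DNA captured with the methyl-binding protein MBD2, 1 labelled Control and 1 labelled Uhrf1 cKO, a conditional knockout of Uhrf1. Uhrf1 encodes a protein that binds hemimethylated DNA at replication forks and recruits the maintenance methyltransferase. Both libraries came from primary chondrocytes of knee cartilage, taken at postnatal day 3 from mice on a C57BL/6 background. Both cultures had received 100 ng/ml of rhBMP-2, recombinant human bone morphogenetic protein 2, for 24 hours. The sources used here do not state the alleles of either genotype, the promoter that drives the recombinase or the number of animals per culture. After removal of duplicate tags, 9782276 Control tags (44.8%) and 15039206 cKO tags (76.1%) were kept. There was 1 library per genotype, so no difference was tested, no value has a replicate error, and the genotype cannot be told apart from any other difference between the libraries. DNA capture measures no transcript, so neither the knockout nor the chondrocyte identity could be checked against expression. Within the targeted gene Uhrf1 itself, 5 regions were listed.

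All listed regions carried more signal in Control than in cKO. A gene without a region may have been little captured in Control, captured alike in both libraries or captured more in cKO, and the list does not separate these cases. The fold, FDR and tag count of a region are the authors' values in their deposited table. The fold is the Control signal at the summit over the local background expected from cKO. The FDR, in percent, relates regions found with the libraries swapped to regions found as listed. Tag counts are followed by exact 95% Poisson intervals where given, which cover counting error only.

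In the growth plate, cartilage cells divide in columns, stop dividing, enlarge and are replaced by bone. Ihh is secreted by cells that have just left the dividing state, and it acts through the receptor Patched and the transducer Smoothened on the Gli transcription factors. It also raises PTHrP near the joint, and PTHrP signals back through its receptor on dividing cells to delay their enlargement. The loop thereby sets the distance at which cells leave the dividing zone.

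The starts of the loop genes are shown first, since the promoter is where methylation of CG dinucleotides is most often read against a gene, and the starts below differ widely in CG content. Each sequence is from RefSeq (GRCm38.p6, the assembly that mm10 names), runs 5′ to 3′ on the gene's strand from 250 bases before a start to 50 after it, and has every CG in capitals. The first 3 belong to the genes without a listed region: Ihh at chr1:74951623-74951922 (minus strand), Pthlh at chr6:147263964-147264263 (minus strand) and Gli3 at chr13:15463473-15463772 (plus strand). Sufu, at chr19:46396646-46396945 (plus strand), had the most regions nearby. For Pth1r the outer start, at chr9:110747096-110747395 (minus strand), and the inner start, at chr9:110742561-110742860 (minus strand), are shown because they differ in CG content.
Ihh: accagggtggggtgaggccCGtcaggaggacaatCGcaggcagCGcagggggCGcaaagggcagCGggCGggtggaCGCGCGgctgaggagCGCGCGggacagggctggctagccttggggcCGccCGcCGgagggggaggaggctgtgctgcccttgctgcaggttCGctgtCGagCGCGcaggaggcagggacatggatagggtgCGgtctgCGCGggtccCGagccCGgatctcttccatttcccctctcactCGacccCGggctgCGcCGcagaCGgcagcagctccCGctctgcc
Pthlh: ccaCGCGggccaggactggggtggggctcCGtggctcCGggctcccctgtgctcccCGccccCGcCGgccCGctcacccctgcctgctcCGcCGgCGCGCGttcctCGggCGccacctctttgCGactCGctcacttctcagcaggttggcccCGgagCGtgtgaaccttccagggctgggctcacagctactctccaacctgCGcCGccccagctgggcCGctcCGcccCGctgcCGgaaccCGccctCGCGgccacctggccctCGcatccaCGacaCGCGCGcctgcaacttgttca
Gli3: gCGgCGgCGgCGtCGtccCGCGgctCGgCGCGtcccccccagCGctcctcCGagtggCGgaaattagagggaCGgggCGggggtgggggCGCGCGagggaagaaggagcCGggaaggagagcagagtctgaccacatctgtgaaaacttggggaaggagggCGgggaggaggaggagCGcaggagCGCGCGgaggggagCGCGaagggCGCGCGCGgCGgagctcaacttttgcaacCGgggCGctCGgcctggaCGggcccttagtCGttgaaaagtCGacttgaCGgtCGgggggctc
Sufu: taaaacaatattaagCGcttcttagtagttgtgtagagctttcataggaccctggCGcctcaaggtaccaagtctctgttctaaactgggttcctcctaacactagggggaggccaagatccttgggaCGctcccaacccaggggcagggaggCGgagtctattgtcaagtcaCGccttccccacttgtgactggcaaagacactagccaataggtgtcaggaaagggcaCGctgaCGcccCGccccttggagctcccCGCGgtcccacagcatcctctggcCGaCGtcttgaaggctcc
Pth1r, outer start: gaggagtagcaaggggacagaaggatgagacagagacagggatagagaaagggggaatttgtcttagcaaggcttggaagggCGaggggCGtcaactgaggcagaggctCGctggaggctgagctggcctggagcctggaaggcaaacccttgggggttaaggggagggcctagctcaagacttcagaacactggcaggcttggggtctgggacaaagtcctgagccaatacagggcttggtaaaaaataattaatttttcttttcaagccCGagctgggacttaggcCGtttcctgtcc
Pth1r, inner start: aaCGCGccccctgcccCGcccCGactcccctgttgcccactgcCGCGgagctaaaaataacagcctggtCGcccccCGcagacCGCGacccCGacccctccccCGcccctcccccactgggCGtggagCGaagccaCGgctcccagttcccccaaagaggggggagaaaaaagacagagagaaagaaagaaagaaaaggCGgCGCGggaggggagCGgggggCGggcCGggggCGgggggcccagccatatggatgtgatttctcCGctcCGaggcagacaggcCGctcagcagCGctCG

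The Ihh sequence held 30 CG dinucleotides, that of Pthlh 33 and that of Gli3 39, whereas Sufu held 12. The outer Pth1r start held 5 and the inner start 27. Over the 21262 listed starts of protein-coding genes the median was 13. The empty windows of Ihh, Pthlh and Gli3 thus surrounded starts rich in CG, at the 86.0th, 89.8th and 94.9th percentile of all listed starts. Such starts were not particular to the genes without a region. Ptch1 and Gli2, which had regions, held 47 and 28 CG, at the 98.5th and 82.8th percentile.

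Regions lay near the loop genes about as often as near protein-coding genes in general. A region in the window was found for 6 of the 9 genes (66.7%), against 65.4% of 21883 protein-coding genes. With the authors' FDR limited to 5%, 5 of the 9 genes kept a region, against 50.9%. Within the annotated span itself, 6 of the 9 had a region, against 38.2%. The loop genes had a median span of 25.9 kb and all protein-coding genes 17.2 kb, and a longer gene meets more regions. By class of span, the background share was computed for the window only. It was 48.0% for genes under 10 kb, the class of Ihh. It was 70.2% for genes of 10 to 50 kb, where 3 of 4 loop genes (Smo, Gli1 and Pth1r, but not Pthlh) had a region. It was 82.3% for genes of 50 to 150 kb, where both Ptch1 and Sufu had regions, and 89.0% for longer genes, where Gli2 had 1 region and Gli3 none.

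**Figure D1:**
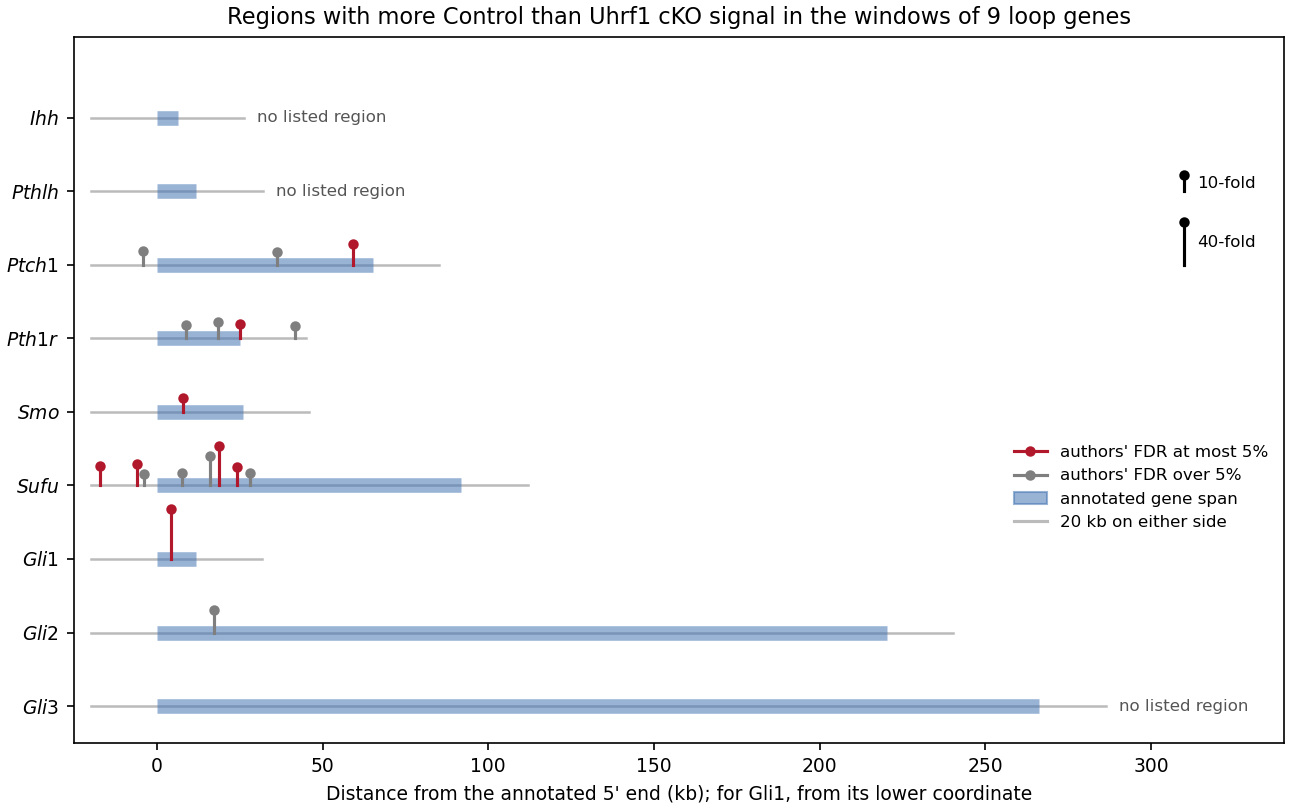
Position of each listed region in the windows of the 9 genes, drawn to scale as distance in kb from the annotated 5′ end (for Gli1, from its lower coordinate). The height of a pin gives the authors' fold and red marks an FDR of at most 5%; the 8 regions of Sufu crowd around its 5′ end, and the windows of Ihh, Pthlh and Gli3 are empty.

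Both secreted ligands lacked a listed region. Ihh, the Hedgehog ligand of the growth plate, lies on chromosome 1 at 74945315 to 74951672 (mm10) and has a span of 6.36 kb. Its nearest region was 80.4 kb away, at 75032036 to 75032413 within the neighbouring gene Nhej1, where 87 Control tags gave 7.85-fold at an FDR of 18.35%. The empty window did not lie in an empty neighbourhood: 20 regions had their summit within 500 kb of the middle of Ihh, against a median of 18 over protein-coding genes. Of protein-coding genes under 10 kb, 52.0% had an empty window as well.

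Pthlh, which encodes PTHrP, lies on chromosome 6 at 147252109 to 147264013, a span of 11.9 kb. Its nearest region lay 42.0 kb beyond its 5′ end in intergenic sequence, at 147305975 to 147306439, where 88 tags gave 24.65-fold at an FDR of 0.02%. This region was outside the 20 kb limit, and a limit of 50 kb would have included it. There were 19 regions within 500 kb of the middle of Pthlh, and 29.8% of protein-coding genes of its span class had an empty window.

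The receptors of both pathways carried regions within their spans and none near a listed start. Ptch1, the Hedgehog receptor and also a target of the pathway, lies on the minus strand of chromosome 13 at 63508328 to 63573460. It had 3 regions in its window. The region closest to the 3′ end, at 63514036 to 63514561, held 157 Control tags (133 to 184) at 14.68-fold, with an FDR of 0%. A region in the middle of the gene, at 63537049 to 63537494, held 64 tags (49.3 to 81.7) at 6.61-fold, with an FDR of 100%. The remaining region lay 4.15 kb upstream of the outermost annotated 5′ end, at 63577409 to 63578066, with 68 tags (52.8 to 86.2) at 7.03-fold and an FDR of 80.54%. The tag interval of the 3′ region did not overlap those of the other two. Among genes of 50 to 150 kb, 46.1% had as many regions as Ptch1 or more. At least 1 region with an FDR of at most 5%, as at Ptch1, was found for 67.1% of them.

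Pth1r, the G protein-coupled receptor for PTHrP and parathyroid hormone, lies on the minus strand of chromosome 9 at 110722085 to 110747145. It had 4 regions in its window, and the strongest by FDR covered the 3′ end of the gene, not a promoter. That region, at 110721655 to 110722172, had its summit 138 bp past the annotated 3′ end and held 130 tags (109 to 154) at 7.92-fold, with an FDR of 0.78%. A region within 1 kb of the 3′ end was found for 6.35% of 17491 protein-coding genes with a known strand. Inside the gene, the region at 110728337 to 110728896 held 121 tags (100 to 145) at 10.16-fold with an FDR of 6.58%. The region at 110738054 to 110738470 held 105 tags (85.9 to 127) at 6.67-fold with an FDR of 23.62%. The last region lay 16663 bp beyond the 3′ end within Ccdc12, at 110705256 to 110705737, with 89 tags (71.5 to 110) at 5.07-fold and an FDR of 100%. The 4 tag intervals of Pth1r overlapped one another. Of genes of 10 to 50 kb, 15.8% had 4 or more regions. At least 1 region with an FDR of at most 5%, as at Pth1r, was found for 54.8% of them. Within 500 kb of the middle of Pth1r lay 35 regions, its own 4 included, more than for 83.5% of protein-coding genes.

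Smo and Sufu act between the receptor and the transcription factors, and they differed in how many regions they carried. Smo encodes Smoothened, the membrane protein that Patched holds inactive. It lies on the plus strand of chromosome 6 at 29735497 to 29761366 and had 1 region, at 29743066 to 29743492, 7.84 kb downstream of its start. This region held 113 tags (93.1 to 136) at 6.95-fold with an FDR of 1.93%. The nearest region outside the window was 20.1 kb from the gene within Tspan33, just past the limit of the rule, with 84 tags at 7.64-fold and an FDR of 42.24%.

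Sufu, which encodes the suppressor that holds Gli proteins in the cytoplasm, had 8 regions, the most of the 9 genes. It lies on the plus strand of chromosome 19 at 46396896 to 46488804. All 8 regions fell within 45.8 kb around its 5′ end, at 46379454 to 46425206, whereas the last 63.6 kb of the gene up to its 3′ end held none. Inside Sufu, the 5 regions had summits 7.71, 16.09, 18.66, 24.21 and 28.11 kb downstream of the start, the last at 30.6% of the gene's length. Upstream, 3 regions lay within Actr1a, a dynactin subunit gene whose higher coordinate is 1155 bp from the Sufu start. The strand of Actr1a was not used.

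The strongest region inside Sufu by fold, at 46415331 to 46415796, held 129 tags (108 to 153) at 36.23-fold with an FDR of 0%. That fold lay at the 94.3rd percentile of all listed regions. Close to it, the region at 46420876 to 46421351 held 158 tags (134 to 185) at 12.32-fold, also with an FDR of 0%. The other regions inside Sufu were weaker: 66 tags at 5.79-fold (FDR 100%), 21 tags at 24.88-fold (FDR 84.48%) and 66 tags at 5.69-fold (FDR 100%), in order from the start.

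Of the Actr1a regions, the farthest from Sufu held the most tags of all 18, 224 (196 to 255), at 13.81-fold and an FDR of 0%. It lay 17.22 kb upstream of the Sufu start and, of the 18 regions, was the closest to the outer edge of a window. The next held 101 tags at 15.64-fold (FDR 0.38%), and the closest to Sufu held 76 tags at 5.03-fold (FDR 100%). Of genes of 50 to 150 kb, 6.49% had 8 or more regions in the window, and 15.3% had as many as the 4 with an FDR of at most 5%. The surroundings of Sufu were dense as well: 60 regions lay within 500 kb of its middle, more than for 98.4% of protein-coding genes. These 60 include the 8 of its own window. The part of this dense stretch in the count for Sufu was not tested.

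The 3 Gli genes carried 2 regions between them. Gli1, a transcriptional activator and itself a target of the pathway, lies on chromosome 10 at 127329882 to 127341579. Its 1 region, at 127334161 to 127334462, had the largest fold of the 18, 48.19, with 42 tags (30.3 to 56.8) and an FDR of 0.35%. By fold this region stood at the 98.0th percentile of all listed regions, and by tags at the 17.5th. It lay inside the gene, 4411 bp and 7286 bp from the gene's ends, and Gli1 had no entry in the promoter table, so the distance to its start was not measured.

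Gli2, the main activator of early Hedgehog response, spans 220 kb on the minus strand of chromosome 1, at 118834061 to 119054405. Its 1 region, at 119037115 to 119037381, lay 16.39 kb downstream of the listed start and held 21 tags (13.0 to 32.1) at 16.99-fold, with an FDR of 100%. Gli3, which serves mainly as a repressor in the limb, spans 266 kb on the plus strand of chromosome 13, at 15463723 to 15730026, and had no region. Its nearest region lay 72.2 kb beyond its 3′ end, at 15802218 to 15802727, with 125 tags at 10.21-fold and an FDR of 0.93%. Of 555 protein-coding genes of 200 to 350 kb, 12.1% had an empty window, and the median number of regions was 3. The stretch around Gli3 was sparse: 4 regions lay within 500 kb of its middle, and 7.01% of protein-coding genes had fewer. That stretch includes the empty window of Gli3 itself, 306 kb long. Fewer regions in such a stretch and fewer at Gli3 itself cannot be told apart.

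**Figure D2:**
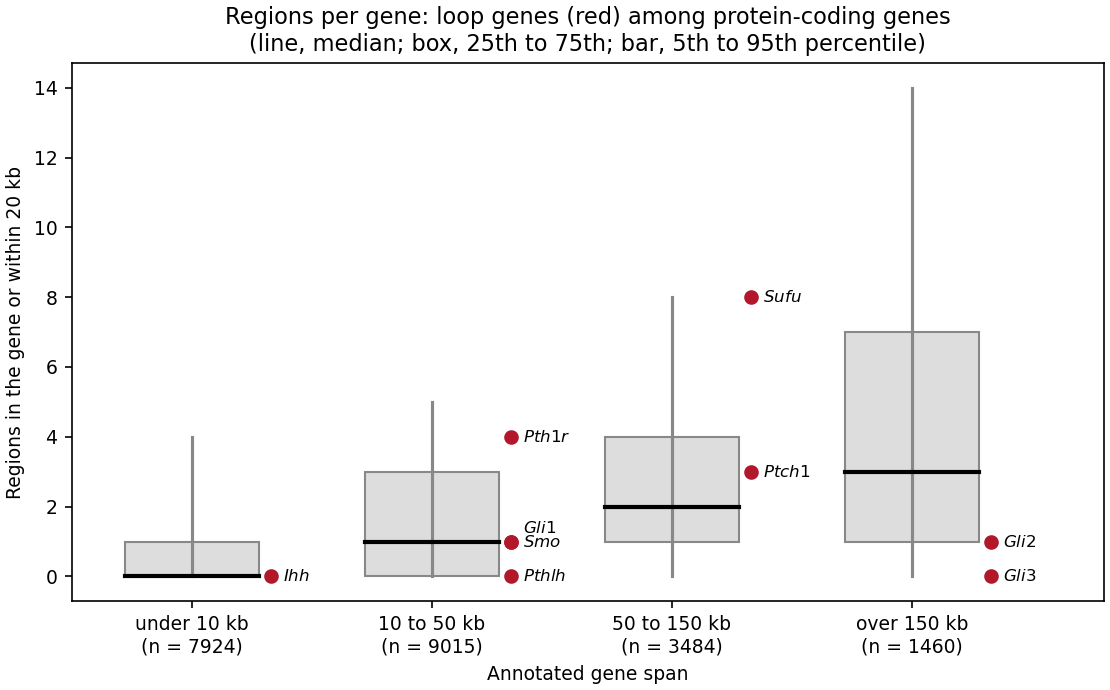
Number of listed regions in the window of each loop gene (red) beside all protein-coding genes of the same class of span (line, median; box, 25th to 75th percentile; bar, 5th to 95th percentile). Sufu, with 8 regions, sits at the 95th percentile of its class, whereas Gli2 and Gli3, with 1 and 0, sit below the class median of 3.

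As a set, the 18 regions had a median fold of 9.04 (order-statistic 95% interval 6.61 to 15.64), and all listed regions had a median of 12.18. The interval treats regions as independent, although 8 lie in 1 stretch of 45.8 kb, and it covers no spread between libraries. The median tag count of the 18 regions was 95, against 103, and the tags ran from 21 to 224. Of the 18 regions, 9 (50%) reached a fold of 10, against 64.6% of all regions. An FDR of at most 5% was listed for 8 of the 18 (44.4%), against 56.9%, and an FDR of 100% for 6 (33.3%), against 16.2%. The 8 regions with the lower FDR were 4 in the window of Sufu and 1 each of Ptch1, Pth1r, Smo and Gli1. Of the 4, those with 224 and 101 tags lay within Actr1a. The median of the 8 regions was 129.5 tags, and that of the other 10 was 67. Over all listed regions, the medians were 161 tags at an FDR of at most 5% and 59 above it. Limiting the FDR to 5% thus left the loop with 8 regions in place of 18.

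**Figure D3:**
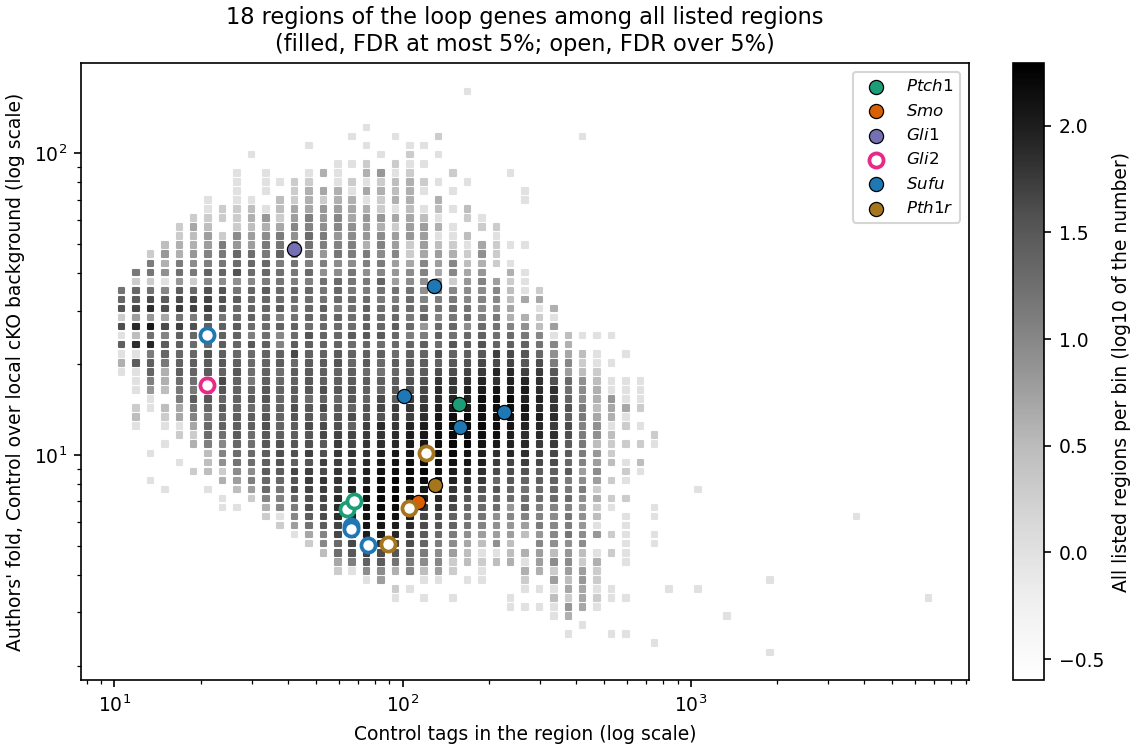
Control tags (x axis) and the authors' fold (y axis), both on log scales, for the 18 regions of the loop genes over all 35861 listed regions (grey bins). The Gli1 region stands high in fold with 42 tags, and most open symbols (FDR over 5%) lie under 10-fold. The 2 open Sufu symbols at 66 tags overlap.

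No loop gene had a region within 1 kb of a start. The promoter table gave 10 starts for 8 of the genes, all but Gli1. Among 17491 protein-coding genes with a listed start, 3.98% had a region within 1 kb of a start, so a count of 0 of 8 is near the background. The distance from a start to the nearest region ran from 3.69 kb at Sufu to 112 kb at Gli3, with a median of 10.2 kb, and over all listed starts the median was 18.4 kb. The 3 starts of Pth1r lay 4.14, 5.22 and 8.68 kb from the same nearest region, so that gene enters the median of 10.2 kb 3 times. The start of Smo lay 7.57 kb from its nearest region. The start of Ptch1 lay 11.7 kb and that of Gli2 16.2 kb from the nearest region.

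CG-rich starts (observed over expected CG ratio of at least 0.6 and G+C of at least 50%) were 7 of the 10. Over all listed starts the share was 45.1%. The exceptions among the 10 were Smo with a ratio of 0.50, Sufu with 0.51 and the outer Pth1r start with 0.25. More than 1 of the 7 belonged to Pth1r. Across all protein-coding genes, CG-rich starts had a region within 1 kb in 3.44% of cases (95% Wilson interval 3.09 to 3.82) and the other starts in 3.67% (3.34 to 4.03). These intervals cover counting error only and treat starts as independent, although some share a gene or a region, and the difference between the classes was not tested. Ptch1 had the most CG dinucleotides of the 10, 47, at the 98.5th percentile of all listed starts. The letters GACCACCCA, the core bound by Gli proteins, were searched on both strands (TGGGTGGTC on the other) and were in none of the 10 sequences. They were in 0.179% of all listed starts, and a 300-base window leaves out most of the sequence that regulates a gene.

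**Figure D4:**
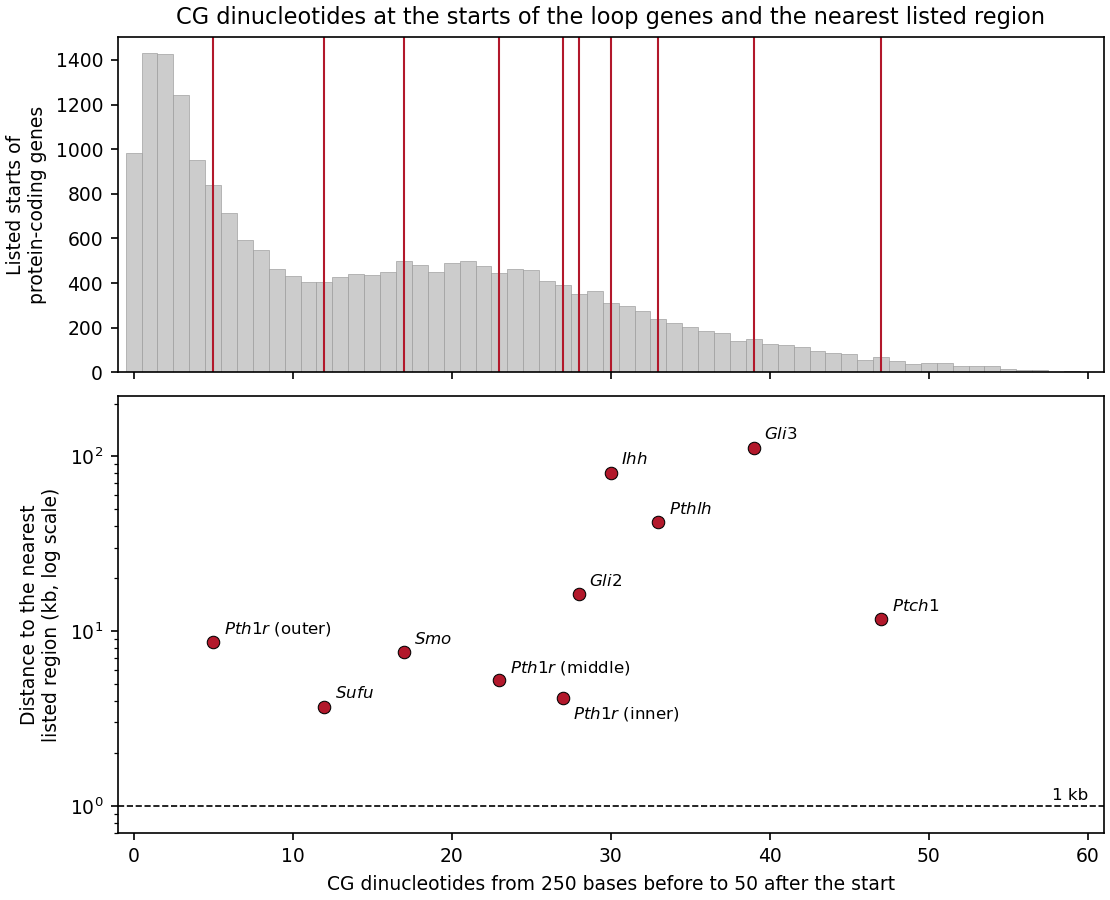
Top, number of CG dinucleotides at all listed starts of protein-coding genes (grey bars), with the 10 starts of the loop genes as red lines. Bottom, the distance in kb (log scale) from each of these starts to the nearest listed region. Every start lies above the dashed line at 1 kb. Those of Ihh, Pthlh and Gli3 lie farthest away, and their empty windows already place them over 20 kb from a region.

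The other genes of both pathways had a longer median span than the loop genes, and most had a region in the window. The share over all protein-coding genes was 65.4%, and it was 70.2% and 82.3% in the span classes of 10 to 50 kb and 50 to 150 kb, which hold the medians of the lists. Of 30 other Hedgehog pathway genes (ligands, co-receptors, ligand release, cilium and Gli processing), 26 had a region (86.7%), 21 of them with an FDR of at most 5%. Of 28 other genes of PTHrP signalling (ligands, G proteins, protein kinase A, and the class II deacetylase and Mef2 branch with its targets), 27 had a region (96.4%), 22 of them with an FDR of at most 5%. The share of all protein-coding genes with a region at that FDR was 50.9%. Within the annotated span alone, 22 of 30 and 17 of 28 had a region, beside 6 of the 9 loop genes and 38.2% of all protein-coding genes, so the order of the PTHrP list and the loop depended on the window. The median span was 48.6 kb in the Hedgehog list and 66.9 kb in the PTHrP list. Per 100 kb of window, the loop genes held 1.66 regions, the Hedgehog list 2.34, the PTHrP list 1.95 and all protein-coding genes 2.09. Long windows weigh most in these pooled rates. In the loop, Gli2 and Gli3 had windows of 260 and 306 kb with 1 and 0 regions. In the PTHrP list, Pde4d alone had 20 regions in 1340 kb. The median fold was 11.0 over the 81 regions of the Hedgehog list and 10.81 over the 94 of the PTHrP list, beside 9.04 for the loop. None of these differences has a test, and the members and lists were chosen with earlier results of these data known.

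In the Hedgehog list, Disp1, which encodes the transporter that releases lipid-modified ligand, had 8 regions with a largest fold of 23.74 (35 tags, FDR 6.31%). Tulp3, an adaptor that carries receptors into the cilium, also had 8, with a largest fold of 18.33 (340 tags, FDR 0%). Scube3, a secreted protein of a family that helps to release ligand, had 7, led by a 43.54-fold region of 210 tags (FDR 0%). Ift88, needed to build the cilium, had 6, and its largest fold of 32.96 came from 11 tags with an FDR of 100%. The 4 genes without a region were Shh, Hhip, Gas1 and Kif7, named after their values were seen.

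In the PTHrP list, Pde4d, a phosphodiesterase that degrades cyclic AMP, had 20 regions in a window of 1340 kb, with a largest fold of 28.63 (46 tags, FDR 3.28%). Sik3, a kinase that acts on class II deacetylases, had 9, with a largest fold of 37.32 (53 tags, FDR 0.08%). Runx2, a transcription factor of chondrocyte enlargement, had 8, with a largest fold of 56.03 (46 tags, FDR 0.07%). Hdac4, the deacetylase that restrains Runx2 and Mef2 proteins, had 6, with a largest fold of 27.39 (201 tags, FDR 0%). The 1 gene without a region was Prkacb, a catalytic subunit of protein kinase A, named after its value was seen. Neither list had a region within 1 kb of a listed start, in the 22 Hedgehog and 21 PTHrP pathway genes with a listed start, and at a share of 3.98% over all such genes these counts of 0 are near the background.

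**Figure D5:**
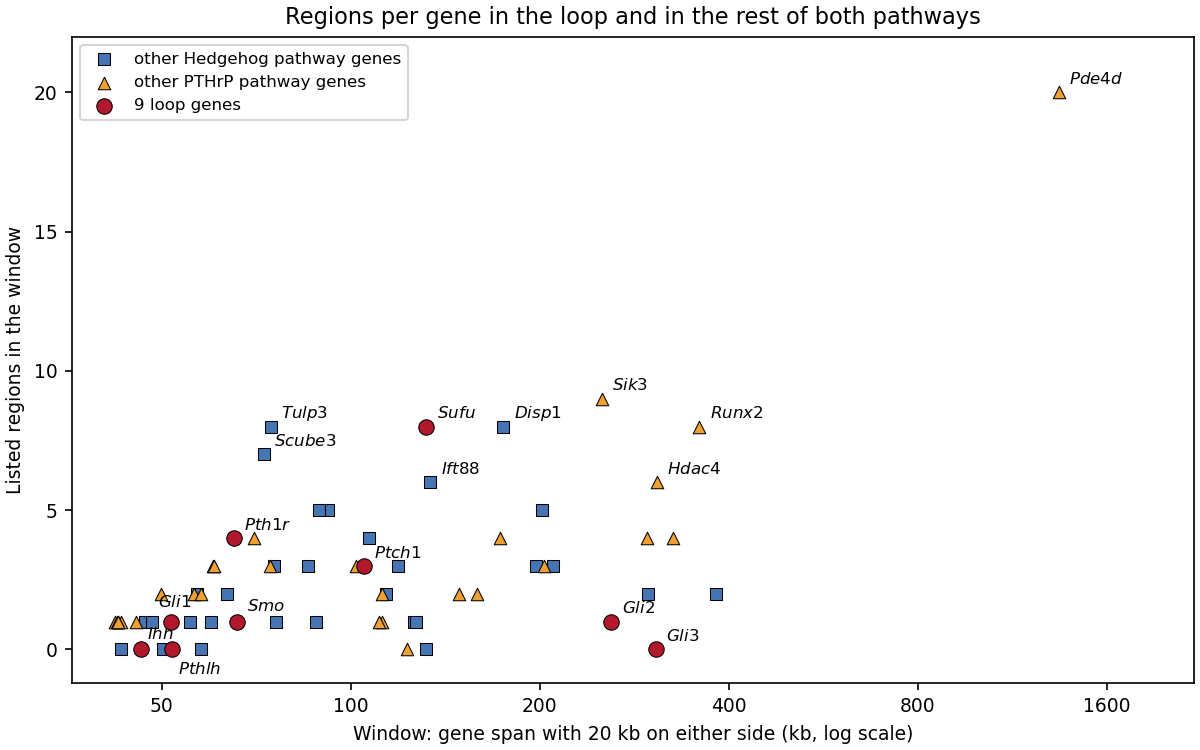
Listed regions per gene against the length of the window in kb (log scale) for the loop genes (red circles), the other Hedgehog pathway genes (blue squares) and the other PTHrP pathway genes (orange triangles). Pde4d has the longest window and the most regions, 20; Sufu has 8 in a window of 132 kb, and Gli3 has 0 in a window of 306 kb.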

How the data were processed

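MBD2-captured DNA of 1 Control and 1 Uhrf1 cKO culture was sequenced, and the deposited file lists regions with more Control signal. Per the file headers, the authors called regions with MACS 1.4.2 with Control as the enriched library and cKO as background, a p limit of 1e-10, at most 1 tag kept per position, a tag size of 55 bp and the larger library scaled to the smaller. Per the submitters' processing notes, positions are in mm10. The aligner is not given in the sources used here. The deposited tag count is of Control tags in a region, unscaled. The deposited score multiplies the negative log10 of the caller's p by 10, per the file headers. The deposited fold is a ratio to the local cKO background, and the deposited FDR is a percent. These values served only to describe regions.

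Gene spans, starts, strands and sequences came from RefSeq tables of GRCm38.p6. All 9 members and 58 other pathway genes matched by symbol, and 8 members had a listed start. The tables used here give no exons, so exon, intron and UTR classes were not assigned, and region sequences were not used here. The members and lists were chosen with earlier results of these data known. Named genes were all 9 members, and from each of the 2 other lists the 4 genes with the most regions (ties by fold) and any with a region at a start. The 5 genes of these lists without a region were named in addition, after their values were seen. Counting was tested on simulated regions. Alternatives changed the p limit, FDR limit, window and overlap rule. Tables were made with pandas 2.3.3, NumPy 2.4.6 and SciPy 1.17.1 in Python 3.11.15, and plots with Matplotlib 3.10.9.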

Additional observations from a re-analysis of the deposited data

How the results depend on the processing

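Of 40 recomputed values, 36 stayed within 1.5 times the reported count or, for the median fold, inside its 95% interval. The 18 regions became 10 at a p limit of 1e-20, 8 at an FDR of at most 5% and 28 with windows widened by 50 kb. The 27 PTHrP pathway genes with a region became 17 with the gene span alone. The number of loop genes with a region ran from 5 to 7: Gli2 lost its region at a p limit of 1e-15 or stricter and at an FDR of at most 5%, and Pthlh gained 1 with 50 kb. Only the wider windows could have added a region, since the stricter settings can only remove regions. With 50 kb, Ihh and Gli3 still had none, and 2 kb around a start gave no loop gene a region there. Counts of 0 could not fall, so those among the 36 values were fixed in advance at the stricter settings. The median fold ran from 7.92 to 14.25. No paired analysis was possible because there was 1 library per genotype, and for the same reason no replicate could be left out. Regions of few tags limit the precision: the Gli2 region rests on 21 tags.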
